A study of Mus musculus with 6 samples.

Results

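The 50 genes described here encode the machinery of mitosis and of the spindle: the cyclin-dependent kinase CDK1 with its cyclins, the Polo-like and Aurora kinases, the spindle checkpoint, kinetochores, mitotic kinesins, condensin and the proteins of cell division. They were chosen by name, and all 50 were found among the 47593 gene rows of the deposited table. The RNA-seq libraries were made from total RNA of mouse cells, selected from femur bone marrow for c-Kit, a receptor tyrosine kinase carried by blood progenitors. All cultures had been infected with a retrovirus of the MSCVneo type that carried MLL-AF9, a leukaemia fusion of the histone methyltransferase MLL with AF9, then selected with G418 and passaged serially in methylcellulose with cytokines. The virus carried the unchanged fusion in 3 libraries (WT) and AF9 with the substitution E531R in the other 3, a change that by the series' title concerns the binding of the corepressor BCOR. The labels give no strain, age or number of animals. They leave unsaid if a replicate is a culture or animal of its own, and p-values here only weigh the spread among these libraries, which may be technical.

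Mitosis is driven by CDK1 bound to cyclin A or cyclin B. The kinases PLK1, Aurora A and Aurora B then build the spindle and correct faulty attachments of chromosomes. The spindle checkpoint holds back the ubiquitin ligase APC/C and its activator CDC20 until every kinetochore is attached, after which securin and cyclin B are destroyed and sister chromatids part. Most of these genes are transcribed in late cell cycle under MuvB complexes with B-MYB and FOXM1, so their summed RNA is widely used as a measure of how many cells of a culture are dividing.

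Libraries held between 14161139 and 33459668 reads assigned to genes, and each member had at least 254 reads in each library. WT replicate 3 stood apart from the other libraries in a way that followed the GC content of transcripts, so each result is given over all 6 libraries and again without it. Markers of several cell types moved with the group. Of 10 myeloid progenitor markers 4 were higher and 1 lower in E531R over 6 libraries (5 and 4 without WT replicate 3). Their summed level was 294860.0 to 361091 in WT (median 295308, the highest in WT replicate 3) and 358103 to 374282 in E531R. Without WT replicate 3 the groups did not overlap in this sum. Kit had 3520 to 3702 normalised reads in WT and 3332 to 3340 in E531R. Mpo was higher in E531R (88341 to 101900 and 135635 to 139288) and Ctsg lower (61494 to 81527 and 36568 to 39803). All 10 neutrophil granule markers were higher in E531R, with a summed level of 6471 to 8752 in WT and 67925 to 75456 in E531R. All 9 tested macrophage and monocyte markers were higher too (2663 to 3377 and 15538 to 17702, summed over 10), with C1qa under a mean of 1. The 7 T and NK cell markers summed to 788 to 1016 in WT and 394 to 429 in E531R, with Nkg7 lower (619 to 775 and 259.8 to 286) and 5 of the 7 under a mean of 1, Cd3e at 0. The 8 erythroid markers summed to 25.3 to 28.3 and 20.8 to 29.2, with 5 under a mean of 1 and Hba-a1 at 0. The part of these cell types in the values below was not tested. In bulk RNA, fewer dividing cells and less RNA of these genes per cell cannot be told apart.

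The members' promoters share sequence features that the choice of genes did not use. RefSeq promoter windows of 250 bases before to 50 bases after a gene's start (GRCm38.p6) were at hand for 41 members with 44 promoters, and were searched on both strands for CCAAT, the box bound by NF-Y, and for TTTGAA and TTTAAA, forms of the cell cycle homology region bound by MuvB. None of the 3 motifs contains another. CCAAT was present in 34 of the 44 promoters (77.3%) against 37.9% of 11813 promoters of tested genes and 37.4% of all 32851 promoters. TTTGAA or TTTAAA was present in 37 of 44 (84.1%) against 19.2% and 27.6%, and both kinds together in 32 (72.7%) against 7.59% and 10.7%. A median GC content of 59.0% in member promoters lay near the 60.7% of tested genes.

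The 250 bases before the start of 4 members are printed below, 5′ to 3′ on the gene's strand, with the CCAAT box (ATTGG on the other strand) and any TTTGAA or TTTAAA match in capitals. Ccnb2 and Cdk1 show both kinds of motif, and Bub1b and Nusap1 are the members with the largest fall and the largest rise in E531R once WT replicate 3 was left out.
Ccnb2 (chr9:70421555-70421804, minus strand): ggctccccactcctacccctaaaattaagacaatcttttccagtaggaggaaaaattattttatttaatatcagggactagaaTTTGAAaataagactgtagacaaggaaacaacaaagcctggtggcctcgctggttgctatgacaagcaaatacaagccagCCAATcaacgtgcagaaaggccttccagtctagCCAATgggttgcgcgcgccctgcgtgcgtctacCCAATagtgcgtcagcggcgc
Cdk1 (chr10:69352913-69353162, minus strand): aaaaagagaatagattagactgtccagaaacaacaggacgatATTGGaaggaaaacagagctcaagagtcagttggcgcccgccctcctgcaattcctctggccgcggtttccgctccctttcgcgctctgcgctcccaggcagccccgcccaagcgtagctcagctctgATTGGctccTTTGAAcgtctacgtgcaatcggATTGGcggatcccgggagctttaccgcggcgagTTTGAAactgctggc
Bub1b (chr2:118597961-118598210, plus strand): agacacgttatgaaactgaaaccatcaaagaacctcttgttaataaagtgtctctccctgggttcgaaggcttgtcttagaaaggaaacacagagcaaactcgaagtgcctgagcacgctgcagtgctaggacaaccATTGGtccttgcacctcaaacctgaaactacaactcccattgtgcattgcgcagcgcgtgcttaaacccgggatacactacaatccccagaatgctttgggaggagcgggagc
Nusap1 (chr2:119618048-119618297, plus strand): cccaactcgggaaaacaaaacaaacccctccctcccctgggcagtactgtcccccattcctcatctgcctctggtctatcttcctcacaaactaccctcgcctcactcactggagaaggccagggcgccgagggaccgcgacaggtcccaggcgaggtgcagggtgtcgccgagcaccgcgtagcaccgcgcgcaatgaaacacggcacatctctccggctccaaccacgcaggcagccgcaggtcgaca
In these stretches Ccnb2 held CCAAT at 3 places and TTTGAA once, Cdk1 held ATTGG at 3 places and TTTGAA at 2, Bub1b held ATTGG once, 113 bases before the start, and Nusap1 held no match. Over the full windows, which run 50 bases past the start, Bub1b also held TTTGAA and Nusap1 still held no match. In these windows CCAAT and a TTTGAA or TTTAAA form were both present in 8 of the 13 members that passed the test without WT replicate 3 and in 21 of the other 28.

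The comparison of E531R with WT asked whether RNAs of the mitotic machinery differ when the fusion carries the substitution. Over all 6 libraries only Bub1b, the checkpoint kinase BUBR1, passed the test among the 50: it fell 1.23-fold, and 0 members rose. Tested over the same 12991 genes with limma at an adjusted p under 0.05, 10.4% were higher and 9.53% lower in E531R, against 0% and 2% of the members, 3 of which had an unadjusted p under 0.05. The median log2 fold change of the members was 0.09, beside 0.01 for all tested genes. Without WT replicate 3, 10 members rose and 3 fell, 20% and 6% of them, where 24.3% and 23.1% of all tested genes did, and the median was 0.03, beside -0.01 over all tested genes. With WT replicate 1 or 2 also left out, 4 or 6 members rose, and with the replicate number as a block, which leaves 1 residual degree of freedom per gene, 16 did. Upper-quartile rescaling of those 5 libraries gave 7 and 5, and removal of a trend of GC content and length gave 12 and 6, where 25.5% and 25.9% of genes did. For the other alternatives the share of all tested genes is not given here. With upper-quartile rescaling or DESeq2 the calls of Cdc25b, Prc1 and Mki67 were lost, and with DESeq2 also those of Ttk and Cdc20. Prc1 was also lost with no filter or with the trend removed. By the authors' deposited table, a single member (1 of 50) had an adjusted p under 0.05, Bub1b, lower in E531R, where 7.91% of 16596 genes were higher and 7.5% lower.

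Changes of the members were small where they could be measured well. Without WT replicate 3 their log2 fold changes ran from -0.24 to 0.25, and 49 of the 50 lay within 0.25 of 0 in either direction. The same held for 61.1% of all tested genes and for 75.3% of the 7608 genes with a mean at least as high as the lowest member (Pttg1, 409 normalised reads). The widest reach of the members' 95% intervals was -0.32 to 0.35 on the log2 scale, and 30 of the 50 intervals included 0. Over all 6 libraries the intervals reached from -0.69 to 1.96, and 47 included 0. Summed, the 50 genes took 0.777%, 0.797% and 0.610% of the reads in WT replicates 1 to 3 and 0.784%, 0.798% and 0.767% in E531R replicates 1 to 3. In summed share the 3 E531R libraries thus overlapped WT replicates 1 and 2, and WT replicate 3 was the lowest of the 6. A sum leans on the most abundant members, such as Mki67, which was low in WT replicate 3. The members' median log2 deviation from the mean of the 5 libraries other than WT replicate 3 gave another order. It was -0.028 and -0.020 in WT replicates 1 and 2, 0.045 in WT replicate 3, the highest, and 0.014 to 0.025 in E531R.

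**Figure D1:**
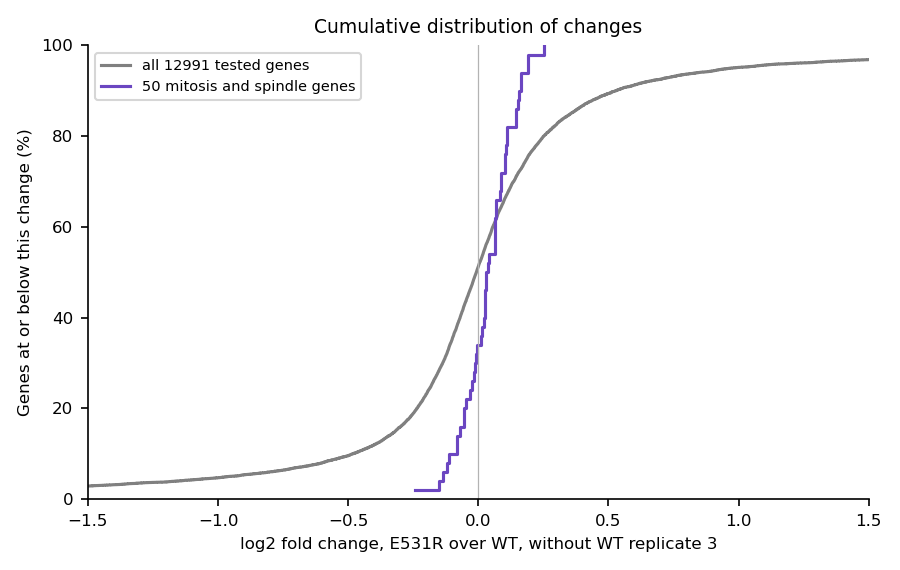
Cumulative share of genes (y axis, percent) at or below a log2 fold change of E531R over WT without WT replicate 3 (x axis), for all 12991 tested genes (grey) and the 50 members (purple). The member curve climbs from 0 to 100% between -0.24 and 0.25, while 5.98% of all tested genes lie beyond 1.5 in either direction, outside the axis.

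Among the 5 libraries other than WT replicate 3, the members' highest and lowest library differed by a median of 1.11-fold. The range was 1.02-fold to 1.26-fold, for Nusap1. The spread of other genes of like abundance is not given here, so it cannot be said to be particular to the members. Within the 3 E531R libraries the median was 1.05-fold and the largest 1.22-fold, for Cenpf. WT replicate 3 ranged from 0.222 of the mean of WT replicates 1 and 2 for Kif20b to 1.34 times that mean for Cdc20. It lay below all 5 other libraries in 23 members and above all 5 in 24, against 30.4% and 37.3% of all tested genes. Set against WT replicates 1 and 2 alone, all E531R values were higher in 18 members and lower in 6, where 32.1% and 32.2% of tested genes were. In the text below, the values of a gene are normalised read counts in the order of replicates 1, 2 and 3.

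**Figure D2:**
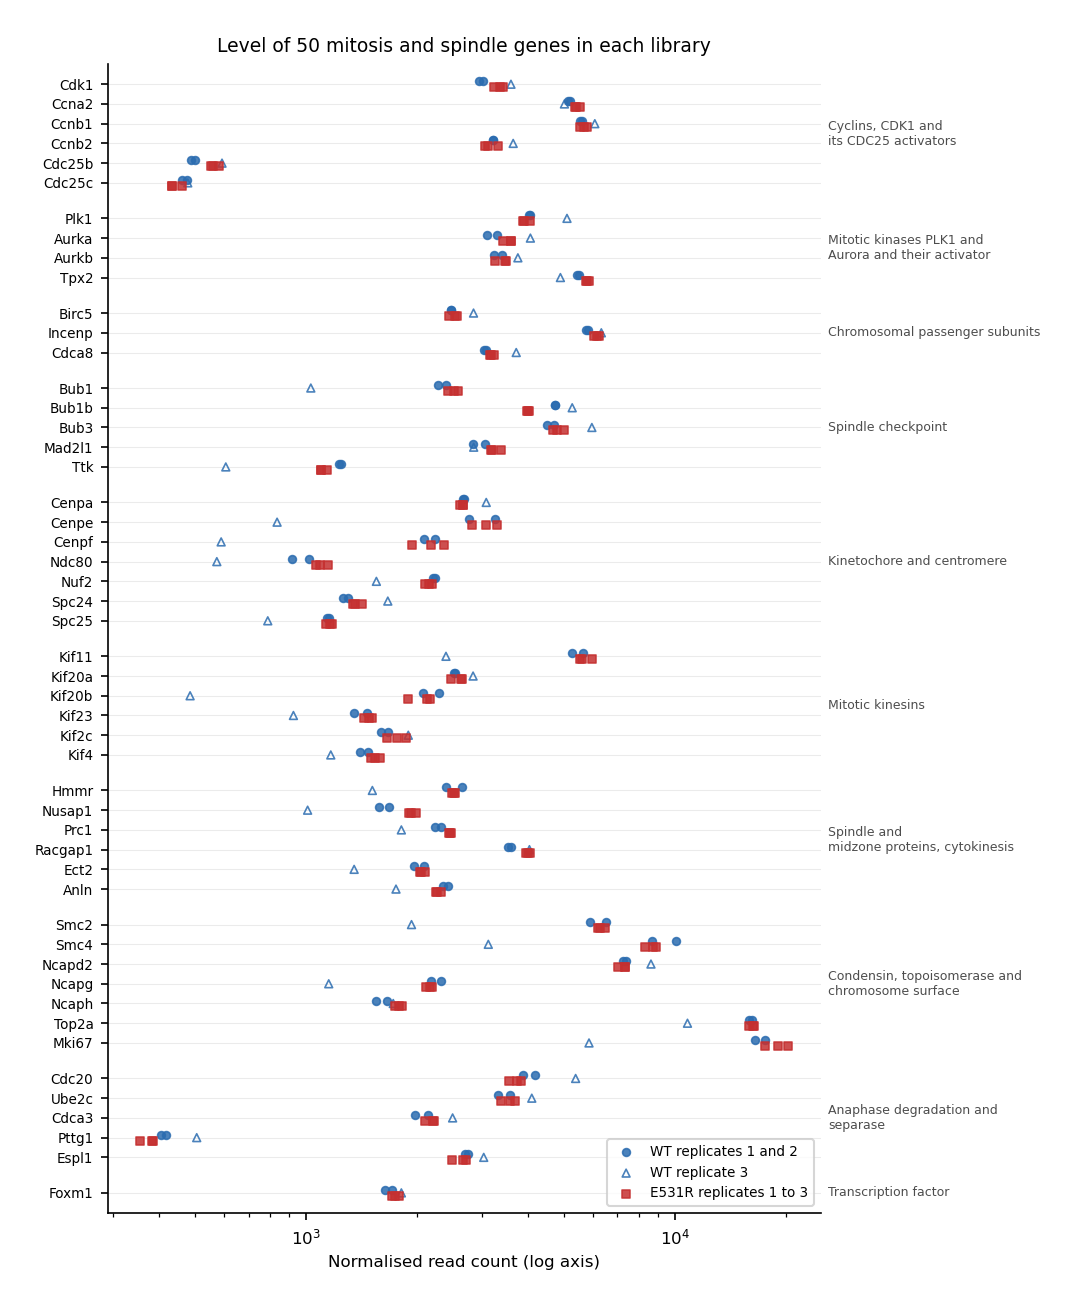
Normalised read count (log x axis) of the 50 genes (rows, grouped by role) in each library: filled blue circles are WT replicates 1 and 2, open triangles WT replicate 3, and red squares the 3 E531R libraries. Red squares and blue circles lie close together in each row, while the triangles lie far to the left in rows such as Kif20b (486) and Cenpf (589.7) and to the right in rows such as Cdc20 (5391).

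The genes of CDK1, its cyclins and its activators did not pass over all 6 libraries. Cdk1, the kinase that starts mitosis, had 3025, 2951 and 3600.3 in WT and 3243, 3369 and 3436 in E531R. E531R lay above WT replicates 1 and 2 and below WT replicate 3, and without that library Cdk1 rose (log2 fold change 0.16, 95% interval 0.081 to 0.25, limma adjusted p = 0.00256). The cyclins stayed within narrow intervals. Ccna2, the cyclin A of S phase and early mitosis, had 5153, 5219 and 5027 in WT and 5372, 5411 and 5536 in E531R, so that all E531R values lay above all WT values, though the test was not passed with or without WT replicate 3 (limma adjusted p = 0.38 and 0.128). Ccnb1, the main mitotic cyclin, had 5528, 5623 and 6077 in WT and 5683, 5524 and 5778 in E531R, with overlapping groups and, without WT replicate 3, a 95% interval of -0.055 to 0.099. Ccnb2, its sister cyclin, had 3228, 3218 and 3651 in WT and 3069, 3128 and 3321 in E531R, also overlapping, with an interval of -0.11 to 0.064. Per kilobase of transcript the CDC25 phosphatases, which activate CDK1, were the lowest of this group. Cdc25b had 488, 502 and 593 in WT and 581, 561 and 555 in E531R and rose without WT replicate 3 (log2 fold change 0.19, 95% interval 0.057 to 0.33, limma adjusted p = 0.02), whereas Cdc25c had 463, 475 and 479 in WT and 433, 463 and 435 in E531R and did not pass. The Cdk1 call was lost when WT replicate 2 was left out as well (limma adjusted p = 0.0518), and the Cdc25b call when WT replicate 1, WT replicate 2 or E531R replicate 1 was (0.106, 0.0584 and 0.0851).

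In the group of Plk1, the Aurora kinases and Tpx2, Aurka passed without WT replicate 3. Aurka was also among the 11 members that rose over all 6 libraries with limma array weights, where 2 fell. The share of all tested genes with these weights is not given here. They gave WT replicate 3 a weight of only 0.058 (0.83 to 3.41 for the others). Without weights the 6-library log2 fold change of Aurka was 0.031 (limma adjusted p = 0.864). Aurka, the Aurora A kinase of centrosomes and spindle poles, had 3303, 3101 and 4065 in WT and 3593, 3431 and 3599 in E531R, so that E531R lay between the other WT libraries and WT replicate 3 (log2 fold change 0.15, 95% interval 0.058 to 0.23, limma adjusted p = 0.0079, without it). Its call was lost with WT replicate 2 also left out (limma adjusted p = 0.142). Tpx2, which activates Aurora A on microtubules, had 5498, 5450.0 and 4902 in WT and 5769, 5866 and 5802 in E531R, with all E531R values above all WT values and a limma adjusted p of 0.225 over 6 libraries and 0.0518 over 5. Plk1, the Polo-like kinase, had 4049.8, 4026 and 5108 in WT and 3890.1, 3905 and 4057 in E531R. E531R overlapped WT replicates 1 and 2, and WT replicate 3 was the highest library.

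The chromosomal passenger complex, which carries Aurora B to centromeres and to the midzone, showed no member past the test in either comparison. Aurkb, its kinase, had 3399, 3239 and 3759 in WT and 3489.8, 3259 and 3474 in E531R. Birc5 (survivin) had 2476, 2473 and 2850.0 in WT and 2570.5, 2448 and 2542 in E531R, and both genes overlapped between the groups. Incenp, the scaffold, and Cdca8 (borealin) lay above WT replicates 1 and 2 and below WT replicate 3 in E531R, with changes of 0.085 and 0.064 on the log2 scale once WT replicate 3 was left out (limma adjusted p = 0.0589 and 0.178). WT replicate 3 was the highest library for all 4 of these genes, at 1.09 to 1.22 times the mean of the other WT libraries.

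The spindle checkpoint held the one gene that passed over all 6 libraries, and its members differed in direction. Bub1b (chromosome 2, 118598211 to 118641591, GRCm38), part of the complex that inhibits APC/C, had 4746, 4740.4 and 5277 in WT and 3998, 4025 and 3991 in E531R. All E531R values lay below all WT values, as in 22.8% of all tested genes and in 3 members. It fell over all 6 libraries (log2 fold change -0.30, 95% interval -0.46 to -0.13, limma adjusted p = 0.0251) and without WT replicate 3 (log2 fold change -0.24, 95% interval -0.32 to -0.17, limma adjusted p = 2.56e-05). Leaving out WT replicate 1 ended the 6-library call (limma adjusted p = 0.0608), as did E531R replicate 1, 2 or 3 (0.121, 0.114 and 0.108) and the replicate number as a block (0.0626). Its log2 fold change ran from -0.33 to -0.24 over the 18 alternatives. Without WT replicate 3 it passed under all 17 alternatives, with the highest adjusted p at 0.0032. Ttk, the MPS1 kinase that starts the checkpoint, had 1234, 1246 and 607 in WT and 1143, 1102 and 1103 in E531R. Its log2 fold change was 0.19 over 6 libraries (limma adjusted p = 0.655) and of the opposite sign without WT replicate 3, where it fell (log2 fold change -0.15, 95% interval -0.25 to -0.052, limma adjusted p = 0.014). That call was lost when WT replicate 1 or 2 was also left out (0.0568 and 0.0755).

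Mad2l1, the MAD2 protein that binds CDC20, had 2843, 3053 and 2853 in WT and 3185, 3205 and 3386 in E531R, with E531R above WT throughout. It did not pass over 6 libraries (limma adjusted p = 0.147) and rose without WT replicate 3 (log2 fold change 0.14, 95% interval 0.053 to 0.24, limma adjusted p = 0.0112), a call lost without WT replicate 1 as well (0.193). With a trend of GC and length removed its log2 fold change was -0.089 over 6 libraries (limma adjusted p = 0.773) and 0.18 without WT replicate 3 (0.00174). Bub1, the kinase related to BUBR1 that docks checkpoint proteins at kinetochores, had 2278, 2398 and 1032 in WT and 2434, 2589.6 and 2530.0 in E531R. All E531R values lay above all WT values, and WT replicate 3 was at 0.441 of the other WT libraries. The 6-library log2 fold change was 0.50, and without that library it was 0.11 (limma adjusted p = 0.0501). Bub3, their shared binding partner, had 4708, 4522 and 5966 in WT and 4798, 4676 and 5009 in E531R, with overlapping groups apart from WT replicate 3.

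Of 7 kinetochore and centromere genes Ndc80 alone passed, without WT replicate 3. Ndc80, the microtubule-binding subunit of the complex named after it, had 918, 1021 and 574 in WT and 1067, 1152 and 1095 in E531R, with every E531R value above every WT value (log2 fold change 0.19, 95% interval 0.069 to 0.31, limma adjusted p = 0.0113, without WT replicate 3). The call was lost without WT replicate 1 as well (0.2). None of its 3 partner subunits passed the test. Nuf2 had 2214, 2242 and 1554 in WT and 2105, 2205 and 2163 in E531R. Spc25 had 1157, 1145 and 789 in WT and 1135, 1179 and 1160.4 in E531R. Spc24 had 1258, 1304 and 1669 in WT and 1356, 1347 and 1420.3 in E531R. Against WT replicates 1 and 2, E531R was lower throughout for Nuf2, overlapping for Spc25 and higher throughout for Spc24, with changes of -0.047, 0.0089 and 0.10 on the log2 scale once WT replicate 3 was left out. Per kilobase of longest annotated transcript, normalised reads of WT replicates 1 and 2 averaged 755 for Spc24, 616 for Spc25, 573 for Nuf2 and 252 for Ndc80, and the E531R libraries kept that order.

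Cenpa, the histone H3 variant that marks centromeres, had 2666, 2685 and 3085 in WT and 2664, 2626 and 2673 in E531R. It was one of the most even members, with a 95% interval of -0.092 to 0.069 without WT replicate 3. Cenpe, a large kinesin of kinetochores, had 2779, 3257 and 836 in WT and 3077, 3305 and 2824 in E531R. Cenpf, a large protein of the outer kinetochore, had 2096, 2243 and 589.7 in WT and 2182, 2366 and 1939 in E531R. In both, E531R overlapped WT replicates 1 and 2 and WT replicate 3 was far the lowest. Both had 6-library log2 fold changes above 0.6, neither past the test, and both were near 0 without WT replicate 3 (0.025 and -0.0088).

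None of the 6 kinesins passed in either comparison. Kif11, the motor that pushes spindle poles apart, had 5274, 5651 and 2399.7 in WT and 5613, 5983 and 5544 in E531R, overlapping but for WT replicate 3. Kif20b, a kinesin of cytokinesis, had 2075, 2294 and 486 in WT and 2126, 2170.2 and 1892 in E531R, where the E531R values overlapped WT replicates 1 and 2 and WT replicate 3 was the lowest of all members against its group. The log2 fold change of Kif20b was 0.64 over 6 libraries, with a 95% interval of -0.69 to 1.96, and -0.083 without WT replicate 3, with an interval of -0.21 to 0.038. Its relative Kif20a, which brings passenger proteins to the midzone, had 2546, 2527 and 2842 in WT and 2646, 2484 and 2641 in E531R, with overlapping groups. Kif23, the midzone motor of centralspindlin, Kif2c, a depolymerase of centromeres, and the chromosome-bound Kif4 had changes of 0.067, 0.11 and 0.10 on the log2 scale once WT replicate 3 was left out.

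Spindle, midzone and cytokinesis genes held 3 of the 10 rises seen without WT replicate 3. Nusap1 (chromosome 2, 119618298 to 119651244, GRCm38), which bundles spindle microtubules, had 1584, 1681 and 1012 in WT and 1908, 1929.8 and 1995 in E531R. Every E531R value lay above every WT value, as in 21.2% of all tested genes and in 10 members. Nusap1 did not pass over 6 libraries (limma adjusted p = 0.126) and rose without WT replicate 3 (log2 fold change 0.25, 95% interval 0.16 to 0.35, limma adjusted p = 0.000175), with an adjusted p of at most 0.0142 under all 17 alternatives. Racgap1, which partners KIF23 in centralspindlin, had 3601, 3545 and 4040.4 in WT and 4044, 3965 and 4014 in E531R, above WT replicates 1 and 2 but level with WT replicate 3. It rose without that library (log2 fold change 0.17, 95% interval 0.089 to 0.24, limma adjusted p = 0.00124) under all 17 alternatives, up to an adjusted p of 0.0243. Prc1, the crosslinker of midzone microtubules, had 2241, 2320.3 and 1816 in WT and 2472, 2447 and 2461 in E531R and rose without WT replicate 3 (log2 fold change 0.11, 95% interval 0.026 to 0.19, limma adjusted p = 0.0306). The Prc1 call was lost with WT replicate 1 (0.166) or E531R replicate 1 (0.0981) also left out.

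The other genes of that group did not pass. Ect2, which activates RhoA at the division plane, had 1969.8, 2086 and 1353 in WT and 2046, 2058 and 2102 in E531R. Hmmr, a spindle pole protein, had 2396, 2659 and 1516 in WT and 2492, 2531 and 2527 in E531R. In both, E531R values overlapped those of WT replicates 1 and 2. Anln (anillin), the scaffold of the contractile ring, had 2358, 2432 and 1756 in WT and 2252, 2325 and 2264 in E531R, where E531R lay below WT replicates 1 and 2 but above WT replicate 3. Its log2 fold change without WT replicate 3 was -0.071 (limma adjusted p = 0.163).

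**Figure D3:**
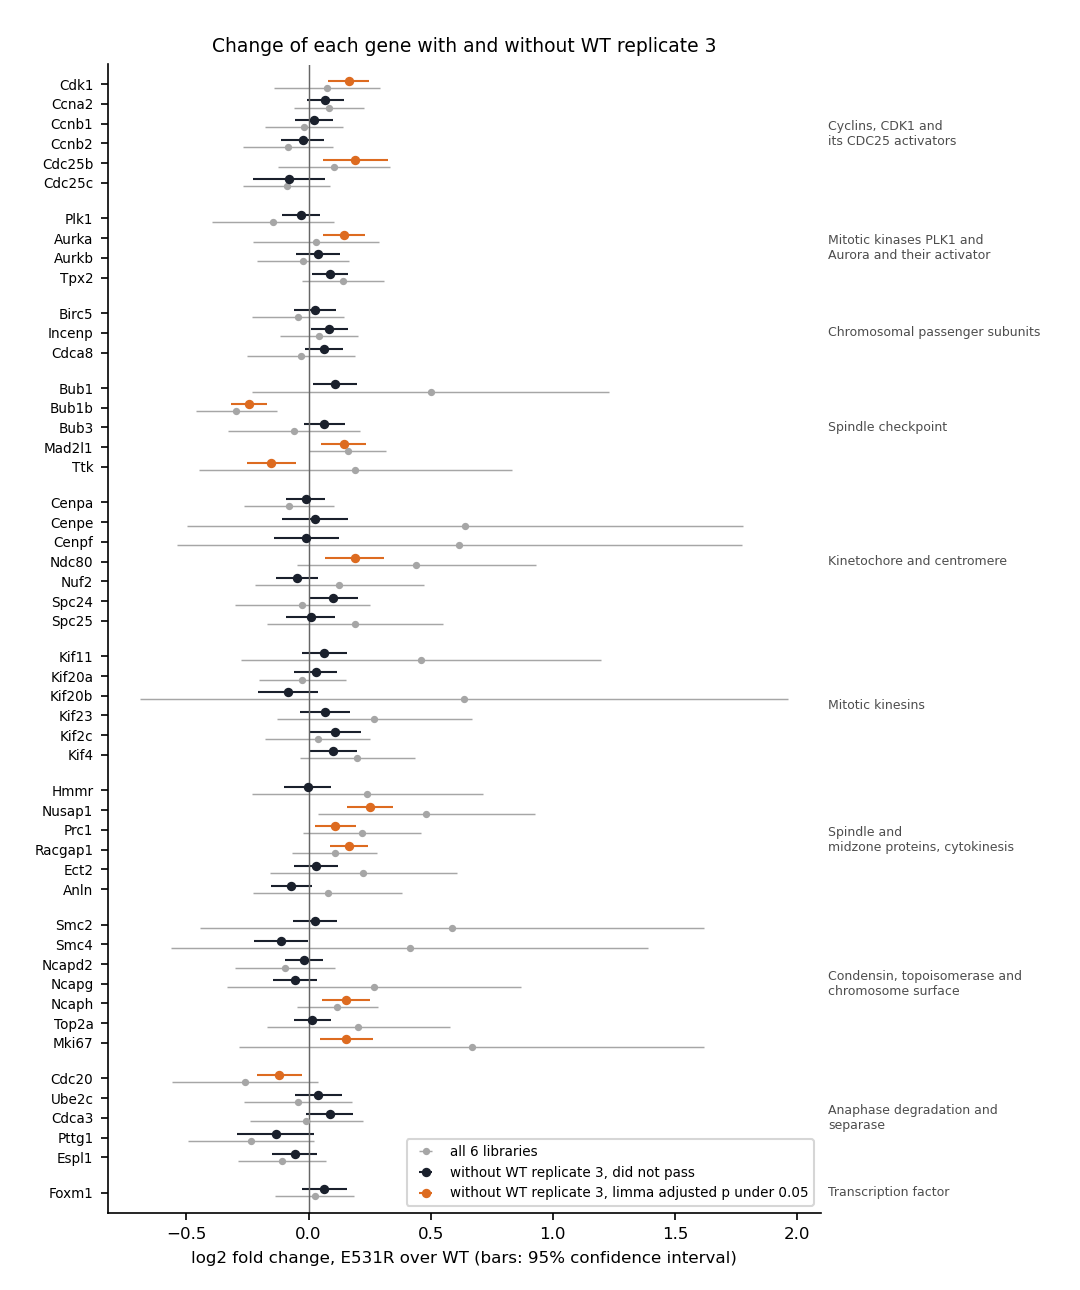
Log2 fold change of E531R over WT with its 95% confidence interval (x axis) for each gene (rows), over all 6 libraries (grey) and without WT replicate 3 (black, or orange where the limma adjusted p was under 0.05). Grey intervals reach up to 1.96, for Kif20b, and the black and orange ones stay between -0.32 and 0.35.

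Among condensin subunits and other chromosome proteins, Mki67 and Ncaph rose without WT replicate 3 and the other 5 did not pass. Mki67, the Ki-67 protein of the mitotic chromosome surface and a common marker of dividing cells, had 16547, 17531 and 5861 in WT and 19025, 20349.8 and 17626 in E531R. All E531R values lay above all WT values, with the lowest E531R value close to WT replicate 2. It did not pass over 6 libraries (log2 fold change 0.67, 95% interval -0.28 to 1.62, limma adjusted p = 0.3) and rose without WT replicate 3 (log2 fold change 0.16, 95% interval 0.048 to 0.26, limma adjusted p = 0.0186), a call lost with WT replicate 1, WT replicate 2, E531R replicate 1 or E531R replicate 2 also left out (0.306, 0.0932, 0.0669 and 0.0782). Top2a, the topoisomerase that untangles sister chromatids, had 15886, 16192 and 10838 in WT and 16339, 16391 and 15902 in E531R, with overlapping groups and an interval of -0.061 to 0.092 without WT replicate 3. Per kilobase Top2a was the most abundant of the 50 genes (3072 and 3105 in WT replicates 1 and 2 and in E531R), and Cdc25b the least in WT (160.3 and 183).

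In condensin I, the ring that compacts mitotic chromosomes, WT replicate 3 split the subunits. Smc2, one of its ATPases, had 5908, 6517 and 1935 in WT and 6279, 6483 and 6199 in E531R. Smc4, its partner, had 8658, 10094 and 3126 in WT and 8745, 8914 and 8309 in E531R. Ncapg, a HEAT-repeat subunit, had 2179, 2320.3 and 1154 in WT and 2174, 2201 and 2124 in E531R. These 3 were at 0.312 to 0.513 of the other WT libraries in WT replicate 3. Ncapd2, the other HEAT-repeat subunit, had 7250.4, 7394 and 8629 in WT and 7320.2, 7351 and 7032 in E531R. The kleisin Ncaph, which closes the ring, had 1548, 1665 and 1727 in WT and 1746, 1819 and 1791 in E531R. For these, WT replicate 3 was at 1.18 and 1.07 times the others. Between the groups Ncaph rose without WT replicate 3 (log2 fold change 0.15, 95% interval 0.056 to 0.25, limma adjusted p = 0.0112), which was lost without WT replicate 1 as well (0.151), and the other 4 subunits did not pass.

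In the group of anaphase degradation and separase, Cdc20 fell without WT replicate 3 and the others did not pass. Cdc20, the APC/C activator, had 4176, 3885 and 5391 in WT and 3746, 3552 and 3829.6 in E531R, with all E531R values below all WT values. It did not pass over 6 libraries (limma adjusted p = 0.208) and fell without WT replicate 3 (log2 fold change -0.12, 95% interval -0.21 to -0.027, limma adjusted p = 0.0324), a call lost without WT replicate 1, E531R replicate 1 or E531R replicate 2 as well (0.361, 0.0723 and 0.121). Pttg1, the securin that holds separase back, had 405, 417 and 506 in WT and 385, 356 and 383 in E531R, again with no overlap, though it did not pass (limma adjusted p = 0.19 and 0.152 with and without WT replicate 3). Espl1, the separase itself, had 2750.4, 2706 and 3037 in WT and 2714, 2673 and 2490.1 in E531R, overlapping WT replicate 2. Ube2c, the ubiquitin-conjugating enzyme of APC/C, had 3587, 3319 and 4100.2 in WT and 3584, 3381 and 3687 in E531R. Cdca3, a cell division cycle gene, had 2141, 1972 and 2501 in WT and 2209, 2111 and 2224 in E531R. For Ube2c and Cdca3 too the groups overlapped. Foxm1, the transcription factor of this gene programme, had 1708, 1637 and 1816 in WT and 1785, 1714 and 1747 in E531R. E531R lay above WT replicates 1 and 2 and below WT replicate 3, with a log2 fold change of 0.064 without WT replicate 3 (95% interval -0.028 to 0.16, limma adjusted p = 0.243).

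WT replicate 3 differed from the other WT libraries along the GC content of the transcripts. Over the 50 members its log2 deviation had a Pearson r of 0.71 and a Spearman rho of 0.78 with the GC content of the longest annotated transcript, and of -0.59 and -0.58 with transcript length. Over 12569 tested genes the figures were 0.56 and 0.62 for GC and -0.17 and -0.30 for length. These are descriptions across genes of 1 library, which share its preparation. Of 20 members with a GC content under 45%, 17 lay below all other libraries in WT replicate 3, with a median ratio of 0.597 to the other WT libraries. Of the 30 at or above 45%, 22 lay above all others, with a median ratio of 1.14. The 9 members under 0.5 of the other WT libraries (Bub1, Ttk, Cenpe, Cenpf, Kif11, Kif20b, Smc2, Smc4 and Mki67) had GC contents of 39.4% to 46.6%, and 9.11% of all tested genes were as low.

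**Figure D4:**
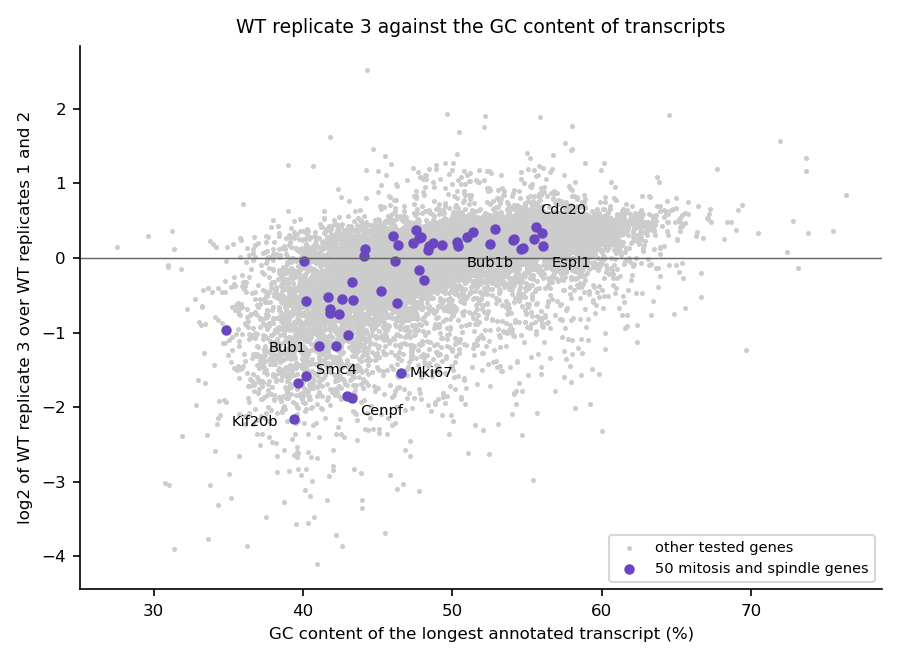
Each point is a gene, placed by the GC content of its longest annotated transcript (x axis, percent) and by the log2 ratio of WT replicate 3 to WT replicates 1 and 2 (y axis), with the 50 members in purple and the other tested genes in grey. Kif20b lies at -2.16 and Cdc20 at 0.42, and the related genes Bub1 and Bub1b lie on either side of 0.

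Related genes were set apart in this library. Bub1, at 41% GC, was at 0.441 of the other WT libraries and Bub1b, at 50.4%, at 1.11 times them. Members that WT replicate 3 held lowest also had longer transcripts (median 4086 bases) than those it held highest (2965.5), and the parts of GC content and length were not tested apart. All 23 members that WT replicate 3 held lowest had a positive 6-library log2 fold change, with a median of 0.27. Their low value in this library is part of the WT mean, which by itself raises E531R over WT. Without that library 15 of them had a positive change, with a median of 0.03. Of the 24 that WT replicate 3 held highest, 6 had a positive change over 6 libraries (median -0.036) and 15 without it (median 0.034). The sign differed between the comparisons in 17 of the 50 members, none of them past the test in both. With a trend of GC content and length removed from each of the 6 libraries, 1 member rose (Nusap1) and 2 fell (Bub1b and Cdc20), where 15.6% and 16.2% of genes did.

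From a list of 123 further mitotic genes, all tested, 2 rose and 0 fell over 6 libraries: Cdc25a, a phosphatase that activates cyclin-dependent kinases (3292, 3427 and 3847 in WT and 4435, 4319.9 and 4343 in E531R; log2 fold change 0.31, 95% interval 0.13 to 0.50, limma adjusted p = 0.0307), and Depdc1b, a gene of late mitosis (1068, 1026 and 1049 in WT and 1294, 1289 and 1261 in E531R; log2 fold change 0.29, 95% interval 0.14 to 0.44, limma adjusted p = 0.0179). In both, every E531R value lay above every WT value, as in 21.2% of all tested genes. Over 6 libraries 10.4% of all tested genes rose and 9.53% fell, while 1.63% of this list passed the test. Each of these calls was lost without WT replicate 1 or 2 or any E531R replicate, and the list then had 0 genes past the test. With the GC and length trend removed Depdc1b passed and Cdc25a did not (limma adjusted p = 0.00438 and 0.142), and with the replicate block neither did (0.0649 and 0.0648). Without WT replicate 3 the list had 23 higher and 12 lower, of 123, beside 24.3% and 23.1% of all tested genes. Its median log2 fold change was 0.08 over 6 libraries and 0.02 over 5.

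By complex, without WT replicate 3 and to be read against those same shares of all tested genes, APC/C subunits and inhibitors had 3 higher and 4 lower of 17, cohesin and its regulators 3 and 2 of 14, and MuvB and B-MYB subunits 1 and 0 of 10. Genes of the entry gate around WEE1 had 2 and 2 of 13, other kinetochore genes 4 and 2 of 30, centrosome and spindle genes 7 and 2 of 36, and condensin II genes 3 and 0 of 3. The largest of these changes was in Anapc11, the RING subunit of APC/C (811, 742 and 1043 in WT and 1187, 1075 and 1193 in E531R; log2 fold change 0.57, 95% interval 0.44 to 0.70, limma adjusted p = 6.9e-07). Fzr1, the APC/C activator of late mitosis and G1, had 2672, 2653 and 3615 in WT and 3122, 2989 and 3047 in E531R, above WT replicates 1 and 2 and below WT replicate 3, and rose (log2 fold change 0.20, 95% interval 0.12 to 0.28, limma adjusted p = 0.000479), while Nipbl, the cohesin loader, had 5185, 5355 and 1853 in WT and 3946, 4090.2 and 4012 in E531R, below WT replicates 1 and 2 and above WT replicate 3, and fell (log2 fold change -0.39, 95% interval -0.47 to -0.31, limma adjusted p = 1.9e-07). Hjurp, the chaperone that deposits CENP-A, had 7547, 7719.7 and 7196 in WT and 6342, 6617 and 6262 in E531R, with E531R below WT throughout, and fell (log2 fold change -0.25, 95% interval -0.33 to -0.17, limma adjusted p = 3.03e-05). Stag2 and Tfdp1 rose and Bora fell, with log2 fold changes of 0.19, 0.15 and -0.24. Zw10, Kifc1, Ncapd3 and Ncaph2 rose by 0.21, 0.24, 0.17 and 0.17 (limma adjusted p of 0.00177 or less for these 7). By the same test over all 6 libraries, none of the genes named in this paragraph passed. Nipbl had the opposite sign there (log2 fold change 0.11, limma adjusted p = 0.864). Fzr1 and Ncaph2 were at 0.050 and 0.0080, and Stag2 at 0.64 with a 95% interval of -0.20 to 1.49. Of 25 genes of S phase, 0 passed over 6 libraries by limma, edgeR or DESeq2, with 2 at an unadjusted p under 0.05. By limma 10.4% of all tested genes were higher and 9.53% lower over 6 libraries. Without WT replicate 3, 8 of the 25 rose and 2 fell, where 24.3% and 23.1% of all tested genes did.

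Of the 50 members, 28 overlap another GENCODE gene, 20 of them a gene on the opposite strand. Bub3 and Prc1 lie wholly within the spans of Fgfr2 and Rccd1. The sources used here do not give the strand setting of the counting. Reads of such partners could be shared, and those of Ccnb1, Ccnb2 and Kif4 could be shared with their annotated pseudogenes.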

How the data were processed

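Gene values of 6 RNA-seq libraries, 3 WT and 3 E531R by title, were analysed. The submitters' processing notes name GRCm38 and the tools FastQC, cutadapt, HISAT2, SAMtools, featureCounts and DESeq2, with no version, role or annotation. The deposited values (unit signal) are read counts that the authors divided by 1 size factor per library. All of them were whole multiples of a library's smallest step within 0.001 reads (100%), so that whole reads were recovered. In the same deposited table the authors give a log2 fold change of WT over E531R, turned in sign here, a test score, a p-value and an adjusted p-value.

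Changes were tested two-sided by limma 3.58.1 (R 4.3.3, eBayes with trend) on log2(value + 1) for 12991 genes whose mean was 10 or more, adjusted by Benjamini-Hochberg over all of them, at a threshold of 0.05. All fold changes have that scale. The test was tried on simulated data of 6 libraries, with changes larger than those of the members called here. None of the simulated libraries deviated with GC content, so the trial does not bear on the calls made without WT replicate 3. Members and lists were chosen with earlier results of these data known. The naming rule covered all members, with values by library for up to 4 called members per role group and 1 otherwise, and up to 2 further mitotic genes per list by smallest adjusted p. Values of other members were added after they were seen. Positions, GC content and length of the longest transcript are from GENCODE M21 (GRCm38) and promoters from RefSeq. Results were recomputed with a pseudocount of 0.5 or 10, without the filter or with a mean of 50 or more, with TMM or upper-quartile rescaling, by edgeR 4.0.16 and DESeq2 1.42.0 on the recovered reads, with limma array weights, with the replicate number as a block, with a GC and length trend removed, and without each library. The alternatives for the further lists and for the 5 libraries were added after seeing the data. Size factors cannot show a shift common to all genes.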

Additional observations from a re-analysis of the deposited data

How the results depend on the processing

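Over 6 libraries, 0 members rose and 1 fell under both pseudocounts, both filters, TMM and upper-quartile rescaling, edgeR and DESeq2. With limma array weights 11 rose and 2 fell, with 23 and 13 further mitotic genes and 8 and 2 S phase genes. These weights put WT replicate 3 at 0.058, beside 0.83 to 3.41 for the other libraries, so it counted little in that fit. The share of all tested genes past the test with these weights is not given here. With the GC and length trend removed 1 member rose and 2 fell (6 and 4 further mitotic genes), also with the replicate block added (7 and 4). The median log2 fold change of members was 0.064 with upper-quartile rescaling, 0.049 with array weights and 0.028 with the trend removed, with or without the block. Upper-quartile rescaling gave 1 lower further mitotic gene. Leaving out 1 library gave 0 to 10 higher and 0 to 3 lower members with medians of 0.034 to 0.096, 0 to 23 and 0 to 12 further mitotic genes, and 0 to 8 and 0 to 2 S phase genes, with the highest of each of these counts, and the lowest median, without WT replicate 3. There Ttk turned from 0.19 to -0.15, and its lowest and highest values with 1 library left out were -0.15 and 0.37.

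With the replicate number as a block, 0 members fell (Bub1b limma adjusted p = 0.0626) and 1 further mitotic gene rose, Anapc11 (limma adjusted p = 0.0492), which had not passed without the block. Deviations of same-numbered libraries correlated at 0.00174, 0.192 and 0.238 for replicates 1, 2 and 3. WT replicates 2 and 3 correlated best with the E531R library of their own number, and WT replicate 1 with E531R replicate 2 (0.177). The labels do not say if same-numbered libraries are paired, and these values do not settle it.

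Without WT replicate 3, members were 7 higher and 5 lower with upper-quartile rescaling (median log2 fold change -0.00074), 1 lower with DESeq2, 16 higher with the replicate block, and 6 lower with the trend removed, with or without the block. The median was 0.041 with array weights and 0.041 with the trend removed. With the block and the trend removed Cenpf turned to 0.093. Further mitotic genes were 20 lower with upper-quartile rescaling and 7 with DESeq2. S phase genes had 0 lower with no filter or DESeq2 and 1 with the trend removed. Leaving out a further library gave 4 to 12 higher and 2 to 3 lower members, medians of 0.031 to 0.049, 14 to 21 higher and 4 to 13 lower further mitotic genes, and 4 to 8 and 0 to 2 S phase genes. With WT replicate 1 or 2 alone, that library is assumed to vary like the E531R libraries. The cause of these shifts was not tested. Each member had 254 reads or more in each library.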
